A study of Homo sapiens with 9 samples.

Results

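Ubiquitin-specific proteases are the largest family of deubiquitinases, the enzymes that remove ubiquitin from proteins. Their genes carry the prefix USP and a number. Members were all genes so named that had a probe set annotated to a single gene symbol, with the Y-linked gene left out. This gave 37 genes of the 14232 genes tested, each with 1 such probe set. A further probe set of USP8, annotated to USP50 as well, was not used. USP6, USP9X, USP18, USP37 and USP50 lay on probe sets that the annotation assigns to other genes as well and were not used here, and 8 more family members (USP10, USP19, USP22, USP27X, USP32, USP35, USP42 and USP43) were not analysed here.

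The samples were PANC-1 cells, an epithelial line from a human pancreatic carcinoma, with 3 biological replicates in each of 3 groups and 1 array per replicate. Cells of the miR520 group received a miR-520f mimic at 20 nM, and those of the NC group a negative control mimic at 20 nM. The NT group received the lipid transfection reagent Lipofectamine RNAiMAX without RNA and is called non-transfected, as in its label. RNA was taken at 72 h, and all groups came from the same line and medium, so that a single cell line stands for the tumour. The study asked which genes the microRNA changed against both controls.

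Ubiquitin is attached to proteins by a chain of E1, E2 and E3 enzymes and marks them for the proteasome, for endosomal sorting or for a change of activity. A ubiquitin-specific protease cuts the bond with a catalytic cysteine, and so can stabilise its substrate or end a signal. Several members act on TGF-beta receptors, histones, DNA repair proteins or cell cycle regulators, processes that are often altered in pancreatic carcinoma. MicroRNAs lower the transcripts that they pair with, mainly through the seed, bases 2 to 8 of the mature strand.

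The mature strands of miR-520f are shown because the mimic is the agent that separates the groups, with the seed in capitals (5′ to 3′, RefSeq, GRCh38.p14, chromosome 19, plus strand). The labels do not say which arm the mimic copies. The 3p strand, chr19:53682213-53682234, has a seed carried by no other mature microRNA in the table. Its first 6 seed bases are the last 6 of the seed shared by 12 microRNAs of the miR-302, miR-372, miR-373 and miR-520 groups, 3 of which are given for comparison.
hsa-miR-520f-3p: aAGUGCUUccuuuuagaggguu
hsa-miR-520f-5p: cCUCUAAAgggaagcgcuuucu
hsa-miR-520c-3p: aAAGUGCUuccuuuuagagggu
hsa-miR-302a-3p: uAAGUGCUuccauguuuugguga
hsa-miR-373-3p: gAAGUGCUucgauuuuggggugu
A run of 21 bases, from base 1 of miR-520f-3p and base 2 of miR-520c-3p, is shared by these strands, so their seeds are 1 position apart. Transcript sequences were not used here, so no statement is made on whether any USP transcript holds a matching site.

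Values were RMA log2 intensities, on which a difference of 1 is a doubling. Array medians ran from 4.22 to 4.34 over 22011 probe sets. Precision is limited by the 3 arrays in a group. Among markers of an epithelial line, KRT8 (11.3 to 11.8) and KRT18 (8.66 to 9.35) were bright, whereas KRT7 (3.43 to 3.56) was near the lower end of the scale. Over the 9 arrays KRT19 ran from 8.11 to 9.11, EPCAM from 7.56 to 9.56 and CDH1 from 5.39 to 6.67. PTPRC, CD3E and CD14 of leukocytes, PECAM1, CDH5 and VWF of endothelium, and CPA1 and GCG of acinar and endocrine cells stayed at 4.09 or below on every array. Of the fibroblast genes, COL1A1 measured 7.06 to 8.23, with COL1A2 and COL3A1 between 3.36 and 3.87. Over the USP genes, negative control replicate 1 deviated most from its group mean (root mean square 0.221, against 0.0530 to 0.193 on the other 8 arrays).

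With miR-520f, 16 of the 37 USP genes changed against both controls (43.2%, against 18.0% of all genes tested). Of these, 9 were higher, where 9.37% of all genes were, and 7 lower, where 8.61% were. USP12 and USP46 are closely related enzymes that are both activated by the scaffold protein WDR48. Ranked by the smaller of the 2 fold changes, the largest falls were in USP12, USP46, USP40, USP47 and USP8. By the same measure the largest rises were in USP38, USP2, USP14, which sits on the proteasome, and USP28, which stabilises the oncoprotein MYC. A gene was called at a limma p adjusted over all 14232 genes under 0.05, and a change against both controls needed a call of the same sign in both comparisons. In RNA of whole cultures, fewer cells of one kind and less RNA per cell cannot be told apart.

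Against the negative control, limma called 20 of the 37 genes (54.1%), where it called 28.1% of all genes tested. By direction, 11 were higher, against 15.4% of all genes, and 9 lower, against 12.6%. Against non-transfected cells it called 19 (51.4%, and 27.6% of all genes), with 11 higher (14.5% of all genes) and 8 lower (13.1%). Without negative control replicate 1, 17 USP genes and 19.5% of all genes changed against both controls. The probe sets of the USP genes were brighter than most, with 30 of 37 at or above the median of the genes tested. Among those 30, 15 changed against both controls (50.0%), compared with 30.7% of all genes at or above the median. The 30 were still the brighter set, with a median level of 7.34 against 6.67. The comparisons share the miR-520f arrays, so their calls are not independent.

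Rises and falls were about equal in number. The median log2 fold change of the USP genes was -0.01 against the negative control and -0.02 against non-transfected cells, where that of all genes was -0.03 in both. The sizes of change, taken without sign, had medians of 0.338 and 0.306, against 0.138 and 0.123 for all genes. These sizes were not matched for brightness, and the median level was 6.84 for the USP genes and 4.53 for all genes. On 18 of the 37 genes (48.6%) the miR-520f arrays lay apart from all 6 control arrays, which held for 25.4% of all genes. These were the 16 called genes with USP3 and USP36. At or above the median level, it held for 17 of 30 USP genes (56.7%) and for 40.3% of all genes.

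**Figure D1:**
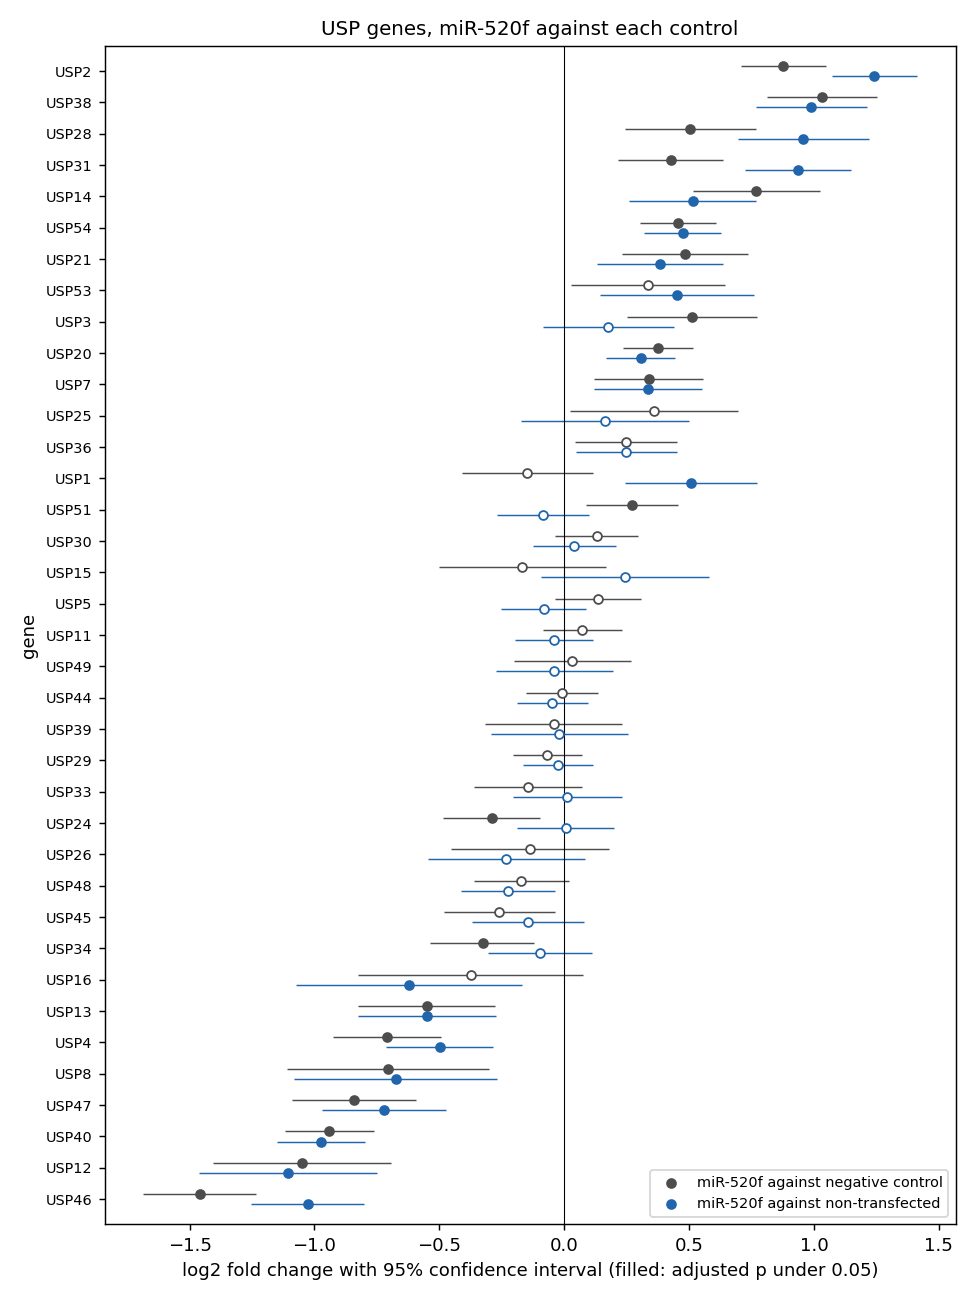
Log2 fold changes of the 37 USP genes with miR-520f against negative control cells (grey) and against non-transfected cells (blue), with 95% confidence intervals from limma; filled points have an adjusted p under 0.05 over all genes. USP46, USP12 and USP40 lie farthest to the left and USP2 and USP38 farthest to the right, and 16 genes have both points filled on the same side of 0.

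In the sentences that follow, pairs of fold changes give miR-520f against the negative control first and against non-transfected cells next. Counts by list rest on few genes and were not tested. Of all genes, 9.37% rose and 8.61% fell against both controls, and 30.7% of those at or above the median level changed. In the list for DNA damage, replication and the cell cycle, 6 genes were measured, of which 3 fell and 1 rose against both controls. USP46 measured 5.83, 5.81 and 5.72 with miR-520f, against 7.43, 7.26 and 7.04 in negative control cells and 6.94, 6.72 and 6.77 in non-transfected cells. The highest miR-520f array was 0.89 below the lowest control array, and the negative control arrays stood above the non-transfected ones. The log2 fold change of USP46 was -1.46 (SE 0.10, limma adjusted p = 2.21e-06) against the negative control and -1.03 (SE 0.10, limma adjusted p = 2.69e-05) against non-transfected cells, which leaves 0.364 and 0.491 of the control levels on the linear scale. USP12, its nearest relative, measured 5.92, 6.02 and 6.20 with miR-520f, against 6.64, 7.30 and 7.35 in negative control cells and 7.18, 7.07 and 7.21 in non-transfected cells. The miR-520f arrays were again lowest without overlap, and negative control replicate 1 was the lowest control array. For USP12 the log2 fold change was -1.05 (SE 0.16, limma adjusted p = 0.000524) against the negative control and -1.11 (SE 0.16, limma adjusted p = 0.000387) against non-transfected cells.

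USP1, the third enzyme that WDR48 activates and known for removing ubiquitin from FANCD2 and PCNA, had a different order of levels. It measured 9.02, 8.78 and 9.29 with miR-520f, against 9.30, 9.05 and 9.18 in negative control cells and 8.50, 8.46 and 8.61 in non-transfected cells. Both transfected groups were above the non-transfected one, and they overlapped each other. Its log2 fold change was 0.51 (SE 0.12, limma adjusted p = 0.00772) for miR-520f against non-transfected cells and -0.15 (SE 0.12, limma adjusted p = 0.443) against the negative control, for which the 95% interval was -0.41 to 0.12. WDR48 itself was not analysed here, and WDR20, a further activator of USP12 and USP46, passed in neither comparison (-0.09 and -0.17). Whether USP1 differed in its change from USP12 and USP46 was not tested.

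USP47, which acts on DNA polymerase beta, measured 6.83, 6.89 and 6.97 with miR-520f, against 7.47, 7.76 and 7.99 in negative control cells and 7.57, 7.66 and 7.62 in non-transfected cells. All miR-520f arrays were below all controls. The log2 fold change was -0.84 (SE 0.11, limma adjusted p = 0.000199) against the negative control and -0.72 (SE 0.11, limma adjusted p = 0.000602) against non-transfected cells. USP28, a MYC-stabilising enzyme that is also linked to the DNA damage response, measured 8.53, 8.53 and 8.66 with miR-520f, against 7.78, 8.12 and 8.31 in negative control cells and 7.51, 7.69 and 7.65 in non-transfected cells. Its groups stood in steps, with miR-520f highest and non-transfected cells lowest, and none overlapped. For USP28 the log2 fold change was 0.51 (SE 0.12, limma adjusted p = 0.00773) against the negative control and 0.96 (SE 0.12, limma adjusted p = 0.000123) against non-transfected cells, while the negative control exceeded non-transfected cells by 0.45 (limma adjusted p = 0.0257). USP24 was lower than in the negative control and did not pass against non-transfected cells, with -0.29 and 0.01 (limma adjusted p = 0.0299 and 0.977). Its call was lost without negative control replicate 1 or 2 or miR-520f replicate 1 or 2, with limma adjusted p between 0.0751 and 0.137, and under 4 other settings.

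**Figure D2:**
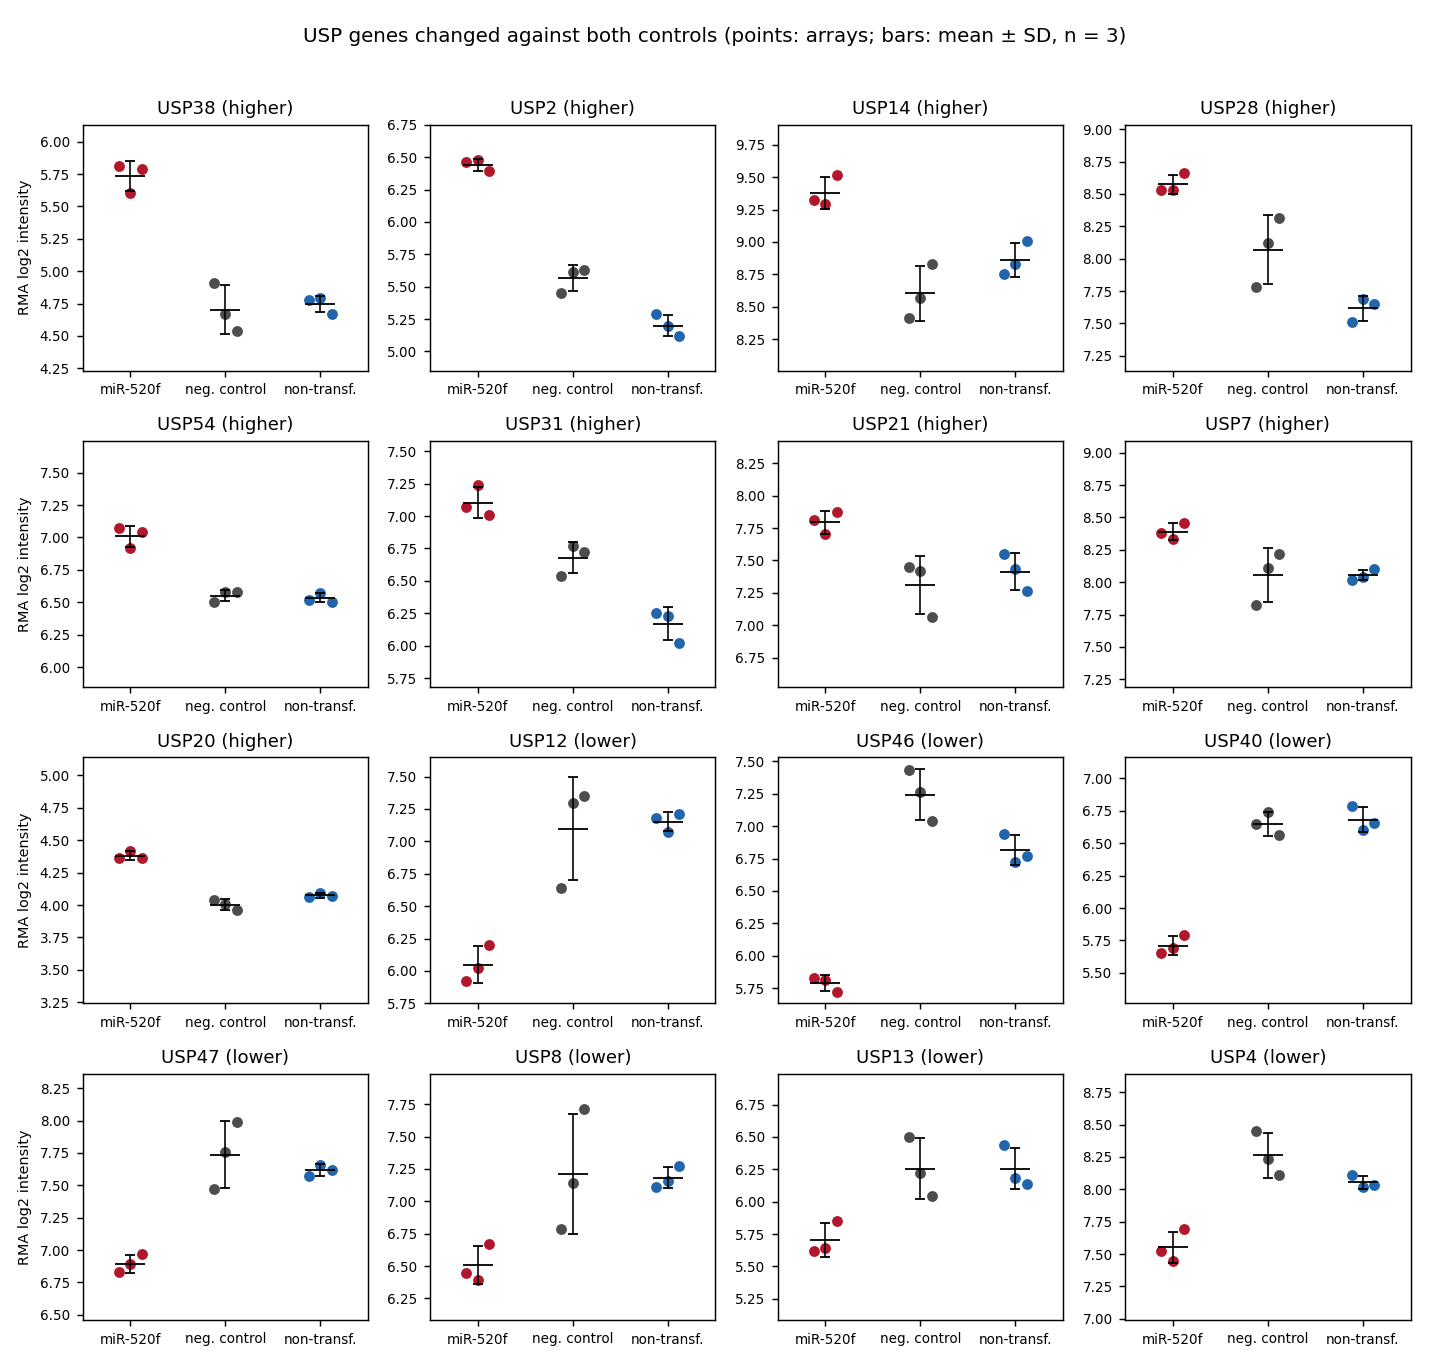
RMA log2 intensity on each array for the 16 USP genes that changed against both controls, one panel per gene on axes of equal span; points are arrays and bars are means with SD (n = 3). In every panel the 3 miR-520f arrays (red) lie on one side of the 6 control arrays, and the spread among negative control arrays (grey) is widest for USP8 and USP12.

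Among enzymes that act on TGF-beta receptors and SMADs, USP4, USP11 and USP15 were measured. USP4, which removes ubiquitin from the type I receptor, measured 7.52, 7.45 and 7.69 with miR-520f, against 8.45, 8.23 and 8.11 in negative control cells and 8.11, 8.02 and 8.03 in non-transfected cells. It was lower on all miR-520f arrays than on any control array, and its log2 fold change was -0.71 (SE 0.10, limma adjusted p = 0.000236) against the negative control and -0.50 (SE 0.10, limma adjusted p = 0.00258) against non-transfected cells. USP15, which deubiquitinates the same receptor complex, measured 6.77, 7.14 and 6.71 with miR-520f, against 6.74, 7.08 and 7.30 in negative control cells and 6.75, 6.68 and 6.45 in non-transfected cells. The groups overlapped. Fold changes of USP15 were -0.17 and 0.24 (limma adjusted p = 0.502 and 0.319), with 95% intervals of -0.50 to 0.17 and -0.09 to 0.58. USP11, also reported to act on the type I receptor, was bright and nearly level at 9.56, 9.61 and 9.51 with miR-520f, against 9.45, 9.54 and 9.47 in negative control cells and 9.70, 9.55 and 9.55 in non-transfected cells. Its fold changes were 0.07 and -0.04 (limma adjusted p = 0.532 and 0.784), with 95% intervals of -0.08 to 0.23 and -0.20 to 0.12. USP4, USP11 and USP15 are close relatives, and whether their changes differed from each other was not tested.

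Of 3 enzymes that handle free ubiquitin chains or act at the proteasome, USP14 rose and USP13 fell against both controls. That was 66.7%, against 18.0% of all genes tested and 30.7% of those at or above the median level. USP14, which trims chains from substrates on the proteasome, measured 9.32, 9.29 and 9.52 with miR-520f, against 8.41, 8.57 and 8.83 in negative control cells and 8.75, 8.83 and 9.01 in non-transfected cells. Its miR-520f arrays were the highest 3. The log2 fold change was 0.77 (SE 0.12, limma adjusted p = 0.000416) against the negative control and 0.51 (SE 0.12, limma adjusted p = 0.00584) against non-transfected cells. USP13 measured 5.62, 5.64 and 5.85 with miR-520f, against 6.50, 6.22 and 6.04 in negative control cells and 6.44, 6.18 and 6.14 in non-transfected cells. It was lower on every miR-520f array than on any control array, and the log2 fold change was -0.55 (SE 0.12, limma adjusted p = 0.00617) against the negative control and -0.55 (SE 0.12, limma adjusted p = 0.00632) against non-transfected cells. USP5, its relative and the main enzyme that disassembles free chains, was called in neither comparison (0.14 and -0.08; limma adjusted p = 0.253 and 0.562). Its miR-520f arrays, at 7.37, 7.39 and 7.38, lay between the 2 controls, above 7.15, 7.33 and 7.26 in negative control cells and below 7.59, 7.40 and 7.40 in non-transfected cells.

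The list for innate immunity and NF-kappaB held 4 measured genes, and 2 rose against both controls, as did 9.37% of all genes. USP38, reported to limit antiviral signalling through TBK1, measured 5.81, 5.60 and 5.79 with miR-520f, against 4.91, 4.67 and 4.54 in negative control cells and 4.78, 4.79 and 4.67 in non-transfected cells. The controls did not separate from each other, and the miR-520f arrays were at least 0.69 above them. USP38 had a log2 fold change of 1.03 (SE 0.10, limma adjusted p = 2.07e-05) against the negative control and 0.99 (SE 0.10, limma adjusted p = 2.98e-05) against non-transfected cells. USP31, reported to restrain NF-kappaB, measured 7.07, 7.24 and 7.01 with miR-520f, against 6.54, 6.77 and 6.72 in negative control cells and 6.25, 6.23 and 6.02 in non-transfected cells. As for USP28, the groups formed steps without overlap, with a rise of 0.51 (limma adjusted p = 0.00455) already in the negative control over non-transfected cells. The log2 fold change of USP31 with miR-520f was 0.43 (SE 0.10, limma adjusted p = 0.00573) against the negative control and 0.94 (SE 0.10, limma adjusted p = 3.05e-05) against non-transfected cells. USP25 (0.36 and 0.16) and USP48 (-0.17 and -0.23) were called in neither comparison, but USP48 passed in both without miR-520f replicate 3 (limma adjusted p = 0.0290 and 0.0126). For USP25, negative control replicate 1 stood apart at 7.37 from the other two at 7.87 and 8.13.

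Of 7 measured enzymes of histones and chromatin, USP21 and USP7 rose against both controls, as did 9.37% of all genes. USP21, which acts on histone H2A and on the kinase RIPK1, measured 7.81, 7.70 and 7.87 with miR-520f, against 7.45, 7.42 and 7.06 in negative control cells and 7.55, 7.43 and 7.26 in non-transfected cells. Its lowest miR-520f array was 0.15 above its highest control array. The log2 fold change was 0.48 (SE 0.12, limma adjusted p = 0.00780) against the negative control and 0.38 (SE 0.12, limma adjusted p = 0.0277) against non-transfected cells. USP7, which stabilises MDM2 and thereby controls p53, measured 8.38, 8.33 and 8.46 with miR-520f, against 7.82, 8.11 and 8.22 in negative control cells and 8.02, 8.04 and 8.10 in non-transfected cells. The miR-520f arrays lay above all control arrays, while the controls overlapped each other, and the log2 fold change was 0.34 (SE 0.10, limma adjusted p = 0.0239) against the negative control and 0.34 (SE 0.10, limma adjusted p = 0.0245) against non-transfected cells. Against non-transfected cells the calls of both were lost in the unmoderated linear model and without miR-520f replicate 1 or 3 or non-transfected replicate 2. That of USP21 was lost without non-transfected replicate 3 too, after a further quantile normalization and with all probe sets tested, and that of USP7 without non-transfected replicate 1. With 1 array left out, the limma adjusted p of the lost calls lay between 0.0681 and 0.110 for USP21 and between 0.0660 and 0.0917 for USP7. Against the negative control USP7 was lost without miR-520f replicate 1 or 3 (limma adjusted p between 0.0649 and 0.0867) and in the unmoderated linear model. Without negative control replicate 1 its log2 fold change there was 0.22 (limma adjusted p = 0.0496).

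In the same list, 3 more enzymes passed in a single comparison. USP3, which removes ubiquitin from histone H2A, was higher than in the negative control by 0.51 (SE 0.12, limma adjusted p = 0.00706) and gave 0.18 (SE 0.12, limma adjusted p = 0.366) against non-transfected cells. USP51, also an enzyme of H2A, was higher than in the negative control and gave 0.27 and -0.08 (limma adjusted p = 0.0301 and 0.583), while the negative control against non-transfected cells gave -0.36 (limma adjusted p = 0.0144). The call of USP51 against the negative control was lost under 6 of 17 settings. With negative control replicate 1 or 2 or miR-520f replicate 1 or 3 left out, its limma adjusted p lay between 0.0853 and 0.111. USP16, needed for chromosome segregation through H2A, was lower than in non-transfected cells and gave -0.38 and -0.62 (limma adjusted p = 0.229 and 0.0434). That call was lost without any 1 of the miR-520f or non-transfected arrays and without negative control replicate 2 (limma adjusted p between 0.0544 and 0.112). The USP16 call was lost under 10 of 18 settings in all, among them median-centred arrays, all probe sets tested and the unmoderated linear model. Its negative control arrays ran widely, at 7.09, 7.84 and 8.18, and USP16 fell against both controls when replicate 1 of that group was left out (limma adjusted p = 0.000455 and 0.000316). The remaining 2, USP44 and USP49, were dim and called in neither comparison.

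At membranes, 5 enzymes were measured. USP8 works on endosomes with the adaptors STAM and STAM2 and spares receptors from degradation. It measured 6.45, 6.39 and 6.67 with miR-520f, against 6.79, 7.14 and 7.71 in negative control cells and 7.11, 7.16 and 7.27 in non-transfected cells. The highest miR-520f array was 0.12 below the lowest control array, which was again negative control replicate 1, and the log2 fold change was -0.71 (SE 0.18, limma adjusted p = 0.0134) against the negative control and -0.68 (SE 0.18, limma adjusted p = 0.0170) against non-transfected cells. Against non-transfected cells its call was lost without miR-520f replicate 1 or 2 or non-transfected replicate 3 (limma adjusted p between 0.0543 and 0.0617). Against the negative control it was lost without miR-520f replicate 2 (limma adjusted p = 0.0514), and without negative control replicate 3 the log2 fold change was -0.46 (limma adjusted p = 0.0167). In the unmoderated linear model USP8 was lost in both comparisons. STAM2 fell beside it (-0.98 and -0.77; limma adjusted p = 6.72e-05 and 0.000408), whereas STAM passed against the negative control and not against non-transfected cells (-0.38 and -0.17).

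USP2, an enzyme with cyclin D1 among its substrates whose gene is under circadian control in mouse, was placed in the same list and had the largest rise against non-transfected cells of all 37 genes. It measured 6.46, 6.48 and 6.39 with miR-520f, against 5.45, 5.61 and 5.63 in negative control cells and 5.29, 5.20 and 5.12 in non-transfected cells. The 3 groups did not overlap. Its log2 fold change was 0.88 (SE 0.08, limma adjusted p = 1.05e-05) against the negative control and 1.24 (SE 0.08, limma adjusted p = 9.90e-07) against non-transfected cells, and the negative control was above non-transfected cells by 0.36 (limma adjusted p = 0.00884). USP20, which acts on the beta-2 adrenergic receptor, was dim and tight at 4.36, 4.42 and 4.36 with miR-520f, against 4.04, 4.01 and 3.96 in negative control cells and 4.06, 4.09 and 4.07 in non-transfected cells. Its log2 fold change with miR-520f was 0.38 (SE 0.06, limma adjusted p = 0.000933) against the negative control and 0.31 (SE 0.06, limma adjusted p = 0.00371) against non-transfected cells. Its relative USP33 (-0.15 and 0.01) and the mitochondrial USP30 (0.13 and 0.04) passed in neither comparison.

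Among 7 genes with no list, USP40 fell and USP54 rose against both controls (28.6%, against 18.0% of all genes tested). USP40 measured 5.65, 5.69 and 5.79 with miR-520f, against 6.65, 6.74 and 6.56 in negative control cells and 6.79, 6.60 and 6.66 in non-transfected cells. The controls were level with each other and at least 0.77 above the miR-520f arrays, and the log2 fold change was -0.94 (SE 0.08, limma adjusted p = 8.63e-06) against the negative control and -0.97 (SE 0.08, limma adjusted p = 7.31e-06) against non-transfected cells. USP54 measured 7.07, 6.92 and 7.04 with miR-520f, against 6.50, 6.58 and 6.58 in negative control cells and 6.52, 6.57 and 6.50 in non-transfected cells. The 6 control arrays lay within 0.08 of each other and the miR-520f arrays above them all, with a log2 fold change of 0.46 (SE 0.07, limma adjusted p = 0.000484) against the negative control and 0.47 (SE 0.07, limma adjusted p = 0.000390) against non-transfected cells. USP53, its relative and a protein of tight junctions, was higher than in non-transfected cells and did not pass against the negative control (0.34 and 0.45; limma adjusted p = 0.106 and 0.0322), with miR-520f arrays that ran from 4.25 to 4.87. The USP53 call was lost under 6 of 17 settings, and without miR-520f replicate 3 the log2 fold change against non-transfected cells was 0.30. Its limma adjusted p lay between 0.0845 and 0.125 without miR-520f replicate 1 or 3 or non-transfected replicate 2 or 3, and was 0.0136 and 0.00432 against the controls without miR-520f replicate 2. USP34, which acts on axin in Wnt signalling, was lower than in the negative control and did not pass against non-transfected cells (-0.33 and -0.10; limma adjusted p = 0.0231 and 0.571). That call was lost without negative control replicate 3 or miR-520f replicate 1 or 2 (limma adjusted p between 0.0510 and 0.102). It was lost also with median-centred arrays and in the unmoderated linear model.

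**Figure D3:**
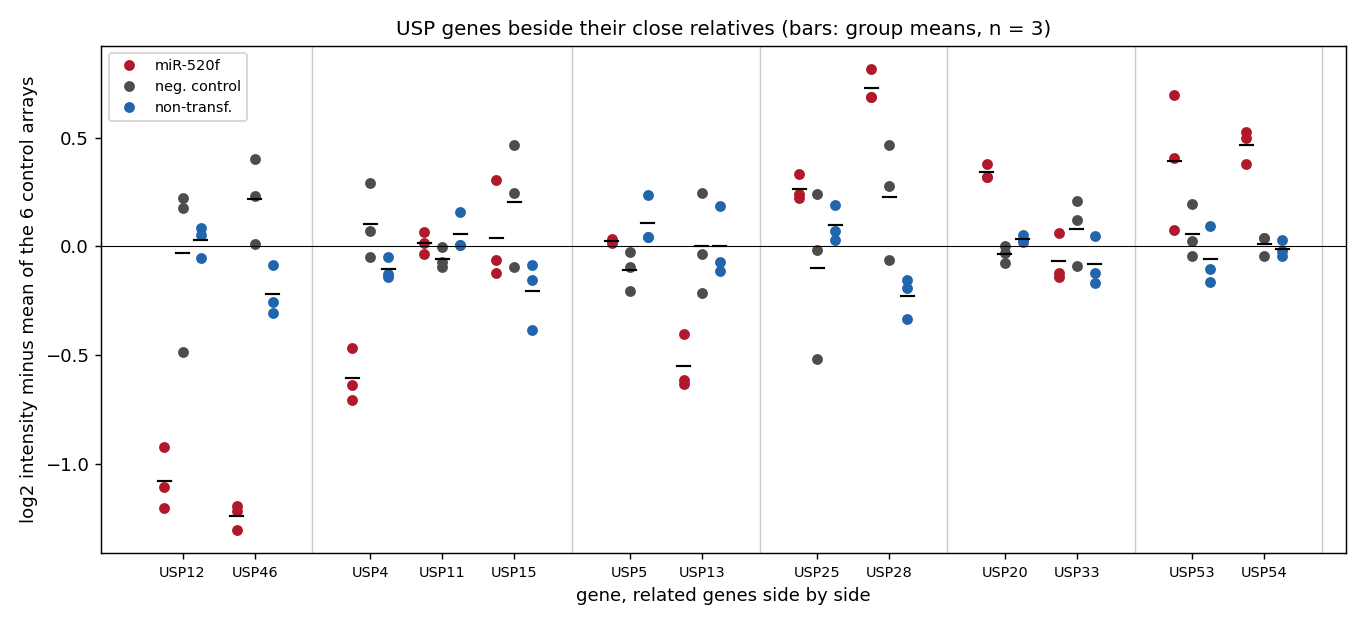
RMA log2 intensity on each array minus the gene's mean over the 6 control arrays, for USP genes set beside their close relatives; short bars are group means (n = 3). USP12 and USP46 are low together with miR-520f (red), while USP4, USP13, USP28, USP20 and USP54 passed against both controls and their relatives USP11, USP15, USP5, USP25, USP33 and USP53 did not.

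Close relatives were named only where at least 1 of them changed against both controls, which gave 6 sets. A called gene in each set is therefore fixed by that choice. Of all 37 USP genes 43.2% changed against both controls, as did 18.0% of all genes tested. In the pair of USP12 and USP46 both fell. In each of the other 5, 1 gene was called against both controls and its relatives were not: USP4 beside USP11 and USP15, USP13 beside USP5, USP28 beside USP25, USP20 beside USP33, and USP54 beside USP53. A miss of the threshold does not show that a relative was unchanged, and no difference between relatives was tested.

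In the nucleolus and RNA list, USP36, which acts in the nucleolus, measured 6.56, 6.71 and 6.52 with miR-520f, against 6.21, 6.45 and 6.38 in negative control cells and 6.39, 6.44 and 6.21 in non-transfected cells. The miR-520f arrays were above every control array, and the fold changes, 0.25 and 0.25 (limma adjusted p = 0.0710 and 0.0709), missed the threshold. USP39, a splicing factor that lacks the active-site residues of the family, gave -0.04 and -0.02 (limma adjusted p = 0.857 and 0.950). In all, 14 of the 37 genes were called in none of the 3 comparisons. The matching share of all genes was not counted, so this count is not read as few or many. Of all genes, 28.1% were called with miR-520f against the negative control and 27.6% against non-transfected cells. Between the controls 15.3% were called. The dimmest 3 probe sets were those of USP29 (2.53 on average over 9 arrays), USP44 (2.69) and USP26 (3.20), near the lower end of the scale where RMA compresses differences. The brightest were those of USP11 (9.55), USP14 (8.95) and USP1 (8.91). Brightness depends on the probes, so these values do not rank the transcripts.

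The negative control mimic against the lipid reagent alone gave 7 calls among the 37 genes (18.9%), against 15.3% of all genes. Of these 6 were higher in the negative control, as were 7.00% of all genes, and 1 lower, as were 8.28%. USP1 (0.66), USP31 (0.51), USP28 (0.45), USP46 (0.43), USP2 (0.36) and USP24 (0.30) were higher in the negative control and USP51 (-0.36) lower. USP2, USP28 and USP31 were thus higher in both transfected groups, and higher with miR-520f than with the control mimic. USP46 was higher with the control mimic and lower with miR-520f than in non-transfected cells. Without non-transfected replicate 2 or 3 the 6 higher calls became 3, since USP24, USP28 and USP46 were lost. USP24 and USP28 were lost also without non-transfected replicate 1 or negative control replicate 2, USP24 without negative control replicate 1 or miR-520f replicate 1 or 2, and USP28 without negative control replicate 3. Where these calls were lost without 1 array, limma adjusted p lay between 0.0560 and 0.125 for USP24, between 0.0548 and 0.0873 for USP28 and between 0.0522 and 0.0719 for USP46. Without negative control replicate 3, 3 genes were lower.

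Other genes of the ubiquitin system were described from lists, by counts and by single named genes, and no list was tested as a set. Of 30 measured deubiquitinases of other families and relatives of the USP enzymes, 5 rose and 4 fell against both controls (30.0%). All genes gave 18.0%, and all genes at or above the median level gave 30.7%. The median level of this list was 6.2, against 4.53 for all genes, so 30.7% is the closer base. OTUB2, of the ovarian tumour family, fell (-1.44 and -1.41; limma adjusted p = 1.45e-05 and 1.75e-05), and so did MINDY1 (-0.57 and -0.81). MINDY2, a relative of MINDY1 that cuts long ubiquitin chains, rose (1.31 and 1.85; limma adjusted p = 0.000140 and 1.30e-05), as did MINDY3 (0.57 and 0.44). Of 22 E2 enzymes, which carry activated ubiquitin, 8 rose and 4 fell (54.5%). Their median level was 7.34, and 30.7% again is the share of all genes at or above the median level. The largest were UBE2E2, which fell (-1.03 and -1.02; limma adjusted p = 4.67e-06 and 5.50e-06), CDC34, which rose and serves cullin-based ligases (1.05 and 0.99; limma adjusted p = 0.000553 and 0.000884), UBE2L6, which fell (-0.65 and -0.97), and UBE2R2, the close relative of CDC34, which rose (1.13 and 0.60).

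Of 10 measured partners of the enzymes, 1 was higher and 1 lower against both controls (20.0%). All genes gave 18.0%, and those at or above the median level 30.7%. STAM2 was the fall and G3BP2 the rise (0.87 and 0.40). G3BP2 and G3BP1 are stress granule proteins that bind USP10, and G3BP1 did not pass (0.04 and 0.09). UBB, a ubiquitin gene, and the E1 enzymes UBA1 and UBA6 gave -0.17 and -0.17, -0.06 and -0.24 and -0.25 and -0.01, of which UBA1 passed against non-transfected cells. In the list for conjugation of ISG15, the interferon-induced modifier that USP18 removes, UBE2L6, its E2 enzyme, and the ligase TRIM25 (-0.45 and -0.61; limma adjusted p = 0.00528 and 0.000809) fell, 2 of 5 (40.0%). ISG15 gave 0.36 and -0.17 (limma adjusted p = 0.0159 and 0.282), UBA7 -0.21 and -0.14 and HERC5 0.18 and 0.10. UBE2L6 is on both lists.

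**Figure D4:**
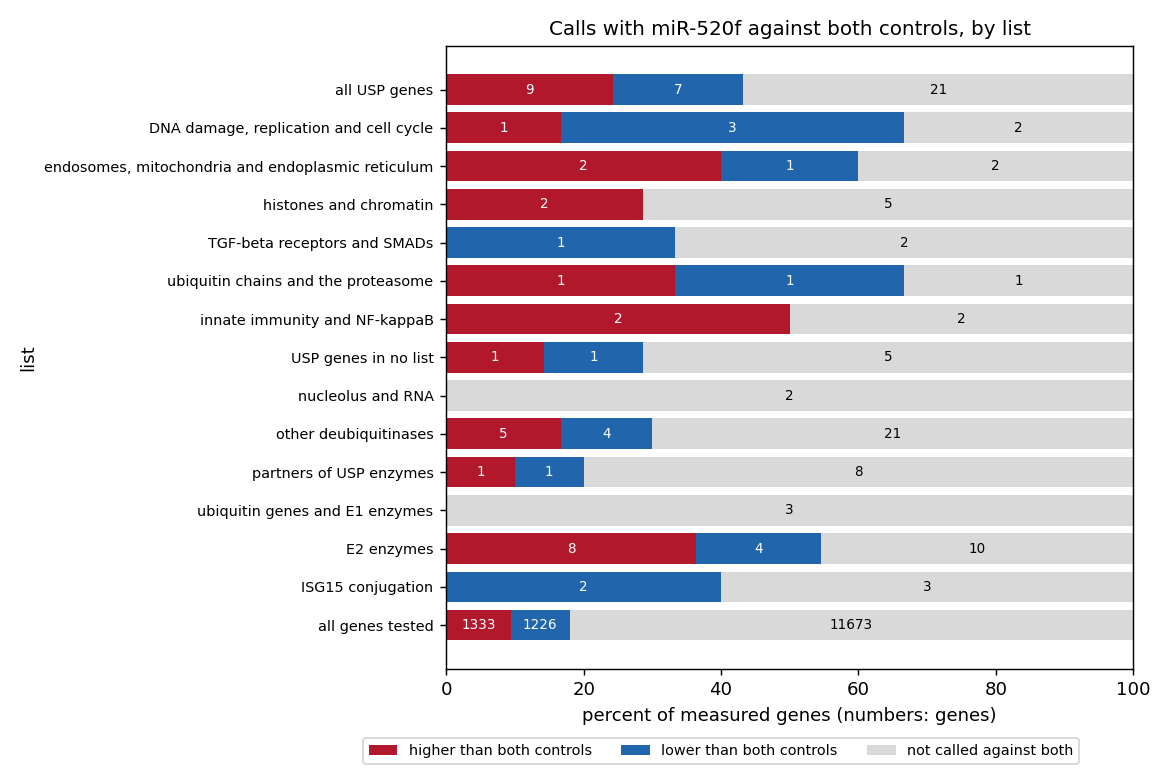
Share of the measured genes of each list that were higher (red), lower (blue) or not called (grey) with miR-520f against both controls, with gene counts in the bars and all genes tested at the bottom. Of the USP genes, 9 were higher and 7 lower among 37, compared with 1333 and 1226 among 14232 genes. Most lists hold under 10 genes, and the shares are not matched for brightness.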

How the data were processed

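PANC-1 RNA was measured on 9 whole-transcript expression arrays. The authors deposited log2 intensities for 22011 probe sets. RMA and Partek 6.6 are named in the submitters' processing notes with build hg18, without settings. RMA scales arrays to a common distribution and compresses differences of dim probe sets. The sources used here give no filter on probe sets.

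The platform annotation gave 1 symbol to 14432 probe sets, several to 2408 and none to 5171. The brightest probe set by mean was taken per gene, giving 14232 genes, and Entrez identifiers matched all 37 members to GRCh38.p14 names. Groups came from the sample titles. One limma model (limma 3.58.1, R 4.3.3) with a mean per group was fitted to all 9 arrays, with 6 residual degrees of freedom, empirical Bayes moderation and two-sided p-values adjusted over all genes by Benjamini-Hochberg, with a threshold of 0.05. The script was tested on simulated data. Beyond the word biological, nothing says that replicates were separate cultures, and p-values cover only the spread among these arrays. Replicate arrays shared at most 1 identical value.

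The members, lists and rule for named genes were chosen with earlier results of these data known. Genes changed against both controls were named with all array values, as were the genes of the TGF-beta list. Genes called in 1 comparison, the 3 brightest and dimmest, relatives of called genes, and up to 4 genes per further list were named too. STAM, WDR20, G3BP1, UBB, UBA1 and UBA6, HERC5, UBA7 and ISG15, and the other uncalled USP genes, were named outside that rule. The listed USP9X and USP18 had no probe set of their own. Alternatives were a replicate block, other scalings, filters, probe set choices and moderation, a fit of 2 groups alone, and leaving out each array.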

Additional observations from a re-analysis of the deposited data

How the results depend on the processing

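Under 18 alternative settings no call of a USP gene changed sign, and 33 of 46 calls were kept in every setting that tested them. The count of genes changed against both controls ran from 13 to 17, and 13 of the 16 kept both calls wherever they were tested; USP7, USP8 and USP21 did not. Rises against both controls ranged from 7 to 10 and falls from 6 to 8 when single arrays were left out. The weakest counts were those of the negative control against non-transfected cells. Higher calls there numbered 6, and 3 in the unmoderated linear model, with 3 to 6 when single arrays were left out. The lower calls numbered 1 (USP51), 3 with the replicate block, 2 after a further quantile normalization and 1 to 3 without single arrays. Without the dimmer genes there were 0 by limma, and 2 at an unadjusted p under 0.05, since USP51 was then not tested. The cause of the other shifts was not tested. Median centring of the arrays moved the median gene by 0.07 at most (log2).

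The replicate numbers were not taken to pair the arrays, because the labels give them no shared culture or day and not every pair correlated above 0.1. Deviations of same-numbered arrays from their group means correlated between -0.03 and 0.21, with 4 of 9 pairs over 0.1, and 11 of 18 array comparisons were best with their own number, 6 of 6 between miR-520f and the negative control, 4 of 6 between miR-520f and non-transfected cells and 1 of 6 between the controls. With the number as a replicate block, 17 genes and 18.9% of all genes changed against both controls (10 higher and 7 lower), USP36 being added (limma adjusted p = 0.0491 and 0.0487). The sources used here held no measure of signal over background, so no gene was called absent.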
